A study of Mus musculus with 7 samples.

Results

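The genes described here are the 3 members of the *Gadd45* family and 7 established transcriptional targets of p53, read from the gene counts of lineage-depleted (lin-) bone marrow cells of *HRP-2* wild type and knockout mice. They were taken by symbol (*Gadd45a*, *Gadd45b*, *Gadd45g*, *Cdkn1a*, *Ccng1*, *Mdm2*, *Bax*, *Bbc3*, *Phlda3* and *Trp53inp1*), and all 10 were found among the 25033 genes listed for each mouse. The study made 3′ end RNA-seq libraries (QuantSeq), in which each transcript gives reads from its 3′ end alone, from 3 wild type mice (*Hrp2*+/+, WT) and 4 knockout mice (*Hrp2*-/-, KO). HRP-2, encoded by *Hdgfl2*, is a chromatin reader related to LEDGF/p75, and the comparison asks which transcripts of progenitor-enriched marrow differ when it is missing. The knockout mice came from the line C57BL/6N-Hdgfrp2<tm1b (KOMP)Wtsi>/Tcp, in which the gene is disrupted in the whole animal, so loss in marrow cells and loss elsewhere in the body cannot be told apart. The cells were isolated from femur and tibia of mice stated to be 6 to 8 weeks old, no mouse was treated, and the labels give no sex.

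p53 is a transcription factor that is held at a low level by the ubiquitin ligase MDM2 and that accumulates after DNA damage and other stress, when it switches on genes for cell cycle arrest, apoptosis, DNA repair and its own inhibitor MDM2. The GADD45 proteins are small acidic stress proteins that bind the kinase MAP3K4, PCNA, p21 and the cyclin B1 and CDK1 complex. *Gadd45a* is a p53 target, whereas *Gadd45b* and *Gadd45g* are known mainly as early response genes of myeloid differentiation and of cytokine signalling. In bone marrow, p53 and its targets set how readily stem and progenitor cells stop dividing or die after irradiation.

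The libraries held 3525665 to 4490287 reads on genes in WT mice and 4355974 to 5605158 in KO mice. *Hdgfl2* itself was at 43.7 to 50.0 CPM (reads on the gene divided by the scaled total, times 1e6) in WT mice and at 0.498 to 2.53 CPM in KO mice, a log2 fold change of −5.09 (SE 0.34; edgeR quasi-likelihood test, adjusted p = 1.38e-07). The summed level of 10 progenitor markers, led by *Mpo* and with *Kit* and *Cd34* among them, was 9347 to 11659 CPM in WT and 8350 to 11140 CPM in KO mice, and that of 12 erythroid markers was 367 to 688 CPM in WT and 352 to 612 CPM in KO mice, although its 4 hemoglobin genes were listed at 0 in every mouse. In KO replicate 3, which also held the most neutrophil marker RNA (given with those markers), *Xist* was at 0.561 CPM and the Y-linked *Ddx3y* at 104.5 CPM. The other 6 mice held *Xist* at 229.0 to 302.8 CPM and *Ddx3y* at 0 to 0.777 CPM. By these 2 genes KO replicate 3 read as male and the other 6 mice, all 3 WT mice among them, as female. The part of sex in the levels of the members was not tested. The ribosomal precursor *Rn45s* took 9.43% to 20.6% of the reads in WT and 4.94% to 18.6% in KO mice, with the highest shares in WT replicate 2 and KO replicate 4.

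No *Gadd45* gene or p53 target passed the test across all genes. *Gadd45a* and *Gadd45g* were the only 2 of the 10 genes whose level was higher in every KO mouse than in every WT mouse. At an adjusted p under 0.25, the threshold of the study, edgeR's quasi-likelihood test called 0 of 10 members, against 2 of 11265 genes tested (0.0178%), and the count was 0 at an adjusted p under 0.05 as well. DESeq2, limma-voom and edgeR's likelihood ratio test also called 0 of the 10. At an unadjusted p under 0.05, 3 members were higher in KO mice (*Gadd45a*, *Gadd45g* and *Bbc3*) and 0 were lower, beside 1.56% of all genes higher and 2.07% lower. The 2 members without overlap compare with 2.37% of all genes lying higher in every KO mouse, and none of the 10 was lower in every KO mouse, as 2.79% of all genes were (5.16% without overlap in either direction). The log2 fold change was above 0 for 8 members and below 0 for *Ccng1* and *Trp53inp1*, and 49.8% of all genes were above 0. It was 0.5 or more for 5 members (*Gadd45a*, *Gadd45g*, *Bbc3*, *Phlda3* and *Gadd45b*) and for 4.67% of all genes. The median over the members was 0.48 (0.26 without WT replicate 3), with a range of −0.49 to 0.91, and the median over all genes tested was −0.0014. The members and the gene lists below were chosen with earlier results of these data known. Their counts beside the shares of all genes are therefore a description and no independent test. In bulk libraries like these, fewer cells of a type and less RNA per cell cannot be told apart.

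**Figure D1:**
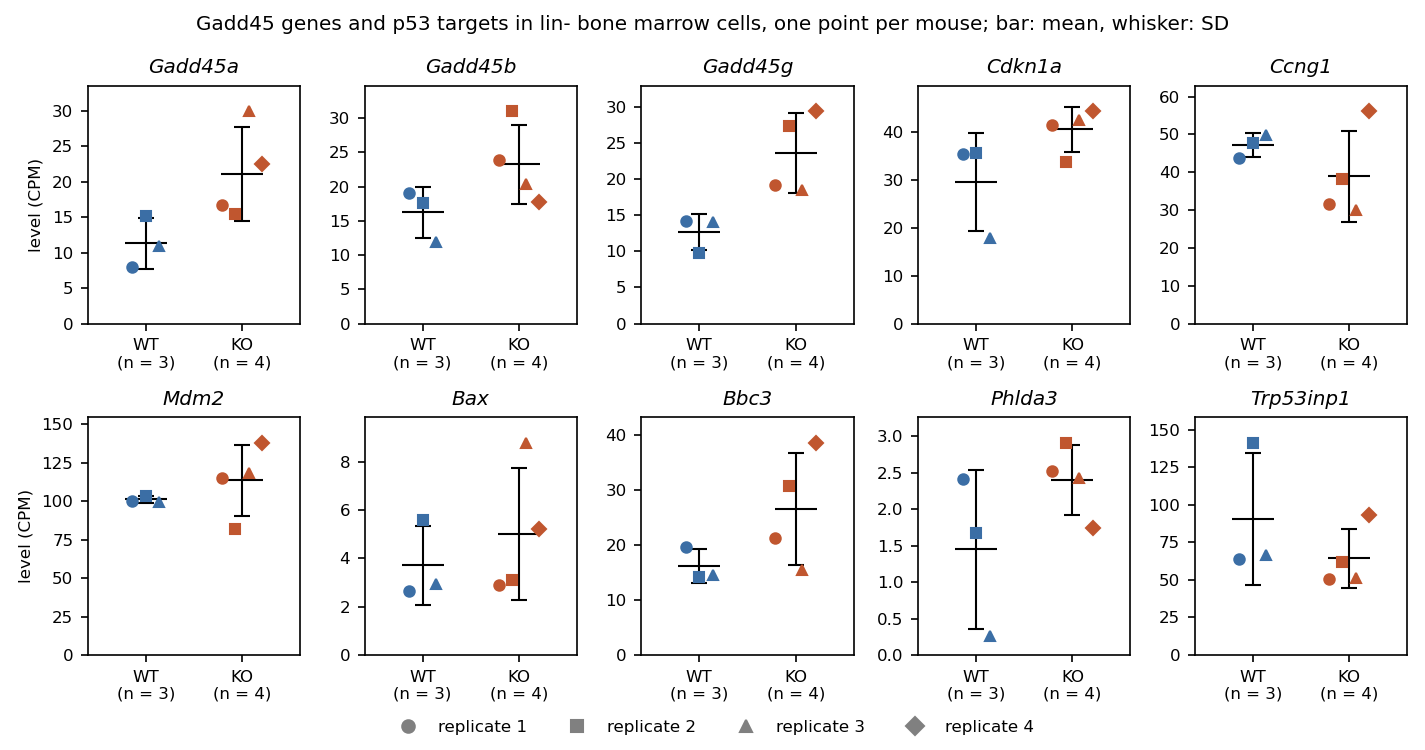
Level in CPM (vertical axes, starting at 0) of the 10 genes in each of 3 WT and 4 KO mice; each point is 1 mouse, the marker shape gives the replicate number, the bar is the mean and the whisker the SD. *Gadd45a* and *Gadd45g* are the panels in which the lowest KO point (15.4 and 18.5 CPM) lies above the highest WT point (15.1 and 14.3 CPM).

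The 3 *Gadd45* genes lie on different chromosomes and their upstream sequences differ. The windows shown are the 250 bases before the RefSeq start (GRCm38.p6), read on the strand of the gene: chr6:67037408-67037657 on the minus strand for *Gadd45a*, chr10:80929841-80930090 on the plus strand for *Gadd45b* and chr13:51846425-51846674 on the plus strand for *Gadd45g*. They are printed so that the family members can be set beside each other, and capitals mark matches to 6 short motifs searched on both strands: the TATA box (TATAAA), the CCAAT box, the E-box (CACGTG), the AP-1 site (TGANTCA), the p53 half-site consensus and the p53 core pair, in which 2 half-site centres (CATG) stand 6 bases apart.
Gadd45a: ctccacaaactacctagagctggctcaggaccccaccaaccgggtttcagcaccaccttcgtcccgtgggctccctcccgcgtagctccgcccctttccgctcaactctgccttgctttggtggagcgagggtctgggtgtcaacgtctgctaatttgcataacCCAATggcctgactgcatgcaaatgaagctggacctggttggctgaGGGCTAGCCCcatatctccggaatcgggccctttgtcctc
Gadd45b: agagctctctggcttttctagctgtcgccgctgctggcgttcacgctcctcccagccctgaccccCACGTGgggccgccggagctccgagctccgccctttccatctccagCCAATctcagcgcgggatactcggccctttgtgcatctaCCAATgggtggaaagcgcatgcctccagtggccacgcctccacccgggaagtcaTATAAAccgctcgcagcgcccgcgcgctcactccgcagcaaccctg
Gadd45g: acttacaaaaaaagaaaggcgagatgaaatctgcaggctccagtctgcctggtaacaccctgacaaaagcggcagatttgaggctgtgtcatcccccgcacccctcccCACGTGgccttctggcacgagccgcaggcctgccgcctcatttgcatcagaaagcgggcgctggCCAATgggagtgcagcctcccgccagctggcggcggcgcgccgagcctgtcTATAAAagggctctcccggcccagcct
The *Gadd45b* and *Gadd45g* windows each hold TATAAA (46 and 27 bases before the start), CCAAT and the E-box CACGTG. The *Gadd45a* window holds no TATAAA and no CACGTG, but CCAAT and the p53 half-site match GGGCTAGCCC, 40 to 31 bases before the RefSeq start. GENCODE M21, the source of the gene positions given here, places the starts of *Gadd45a* and *Gadd45b* further upstream, so that this match and the ends of both windows lie inside the genes as GENCODE draws them. Among 32851 promoter windows of this length in the RefSeq table, TATAAA was in 12.4%, CCAAT in 33.8%, CACGTG in 6.02% and a half-site match in 7.13% of them. A match describes the letters and is no measure of binding.

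*Gadd45a*, the damage-induced founder of the family (chr6:67035096-67037457, minus strand), was at 7.90, 15.1 and 10.9 CPM in WT replicates 1 to 3 and at 16.7, 15.4, 29.9 and 22.4 CPM in KO replicates 1 to 4. The groups did not overlap, but the gap between WT replicate 2 and KO replicate 2 was small against the spread within each group. The means were 11.3 ± 3.63 CPM (SD, n = 3) and 21.1 ± 6.61 CPM (SD, n = 4). This gave a log2 fold change of 0.91 (SE 0.30, 95% interval 0.28 to 1.54), with an unadjusted p of 0.0070 and an adjusted p of 0.999 in edgeR's quasi-likelihood test, which put the gene 63rd of 11265 by p. These levels rest on 36 to 54 reads per WT mouse and 74 to 160 per KO mouse. An antisense gene, E230016M11Rik, overlaps 19.1% of the exonic bases of *Gadd45a* but none of its last 500, and the strand that was counted is not stated.

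*Gadd45g*, a family member induced by cytokines, lies at chr13:51846678-51848468 on the plus strand. It was at 14.3, 9.80 and 14.1 CPM in the WT mice and at 19.2, 27.4, 18.5 and 29.4 CPM in the KO mice, so that every KO mouse was higher than every WT mouse. The means were 12.7 ± 2.53 (SD, n = 3) and 23.6 ± 5.58 CPM (SD, n = 4). The log2 fold change of 0.88 (SE 0.26, 95% interval 0.34 to 1.43) gave an unadjusted p of 0.0032, the smallest among the members and 35th of all genes, and an adjusted p of 0.989 with edgeR. Without WT replicate 2 and KO replicate 4, the 2 libraries with the most *Rn45s*, it was 0.61 with an unadjusted p of 0.0547; this alternative was chosen after seeing the data.

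*Gadd45b*, a target of NF-κB and TGF-β signalling (chr10:80930073-80932204, plus strand), was at 19.1, 17.6 and 12.0 CPM in the WT mice and at 23.9, 31.0, 20.4 and 17.7 CPM in the KO mice. KO replicate 4 lay between WT replicates 1 and 2, so the groups overlapped. The means were 16.2 ± 3.77 and 23.2 ± 5.75 CPM (SD, n = 3 and 4), and the 95% interval of the log2 fold change of 0.52 ran from −0.02 to 1.05 (edgeR, adjusted p = 0.999). Without WT replicate 3 it was 0.34. With edgeR it was 0.66 without WT replicate 1 (unadjusted p = 0.047), 0.62 without KO replicate 4 (0.032) and 0.63 with the replicate block (0.036), and the unadjusted p was 0.047 without a filter on low counts. The gene of the family with the highest level also changed from mouse to mouse: it was *Gadd45b* in WT replicates 1 and 2 and KO replicates 1 and 2, *Gadd45g* in WT replicate 3 and KO replicate 4, and *Gadd45a* in KO replicate 3. As QuantSeq reads come from the 3′ end, CPM was compared between genes without division by length.

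Summed over the family, the *Gadd45* level was 41.2, 42.6 and 36.9 CPM in WT mice and 59.9, 73.8, 68.8 and 69.5 CPM in KO mice. The sum had a mean of 40.2 ± 2.94 CPM in WT (SD, n = 3) and 68.0 ± 5.85 CPM in KO mice (SD, n = 4), and is given as a description, without a test. The spread of the sum relative to its mean was smaller than that of each family member in either genotype. A sum over genes that do not rise and fall together is less spread by arithmetic, so nothing about the family is read from this. Within the KO group *Gadd45a* was highest in replicate 3, *Gadd45b* in replicate 2 and *Gadd45g* in replicate 4.

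**Figure D2:**
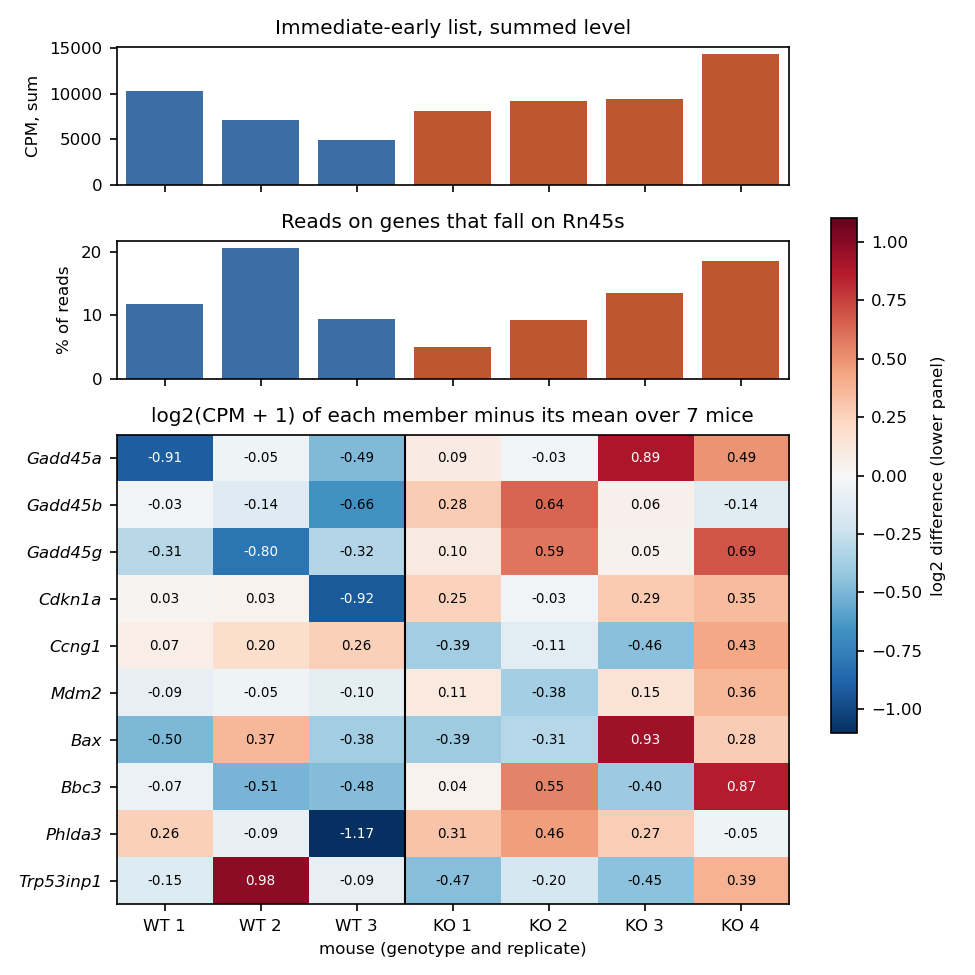
For each of the 7 mice (columns, WT blue and KO orange), the upper bars give the summed CPM of 28 immediate-early genes and the percent of reads on genes that fell on *Rn45s*, and the heat map gives the 10 genes (rows) as log2(CPM + 1) minus the mean of the 7 mice; red is above and blue below that mean. The *Gadd45a*, *Gadd45b*, *Gadd45g*, *Mdm2* and *Bbc3* rows are below it in all 3 WT columns, and the highest *Gadd45a* and *Bax* values are both in KO replicate 3 (0.89 and 0.93).

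Among the cell cycle and feedback members, *Cdkn1a* (chr17:29090976-29100727, plus strand) encodes the cyclin-dependent kinase inhibitor p21, the main effector of p53-dependent arrest. The window before its upstream RefSeq start (chr17:29090729-29090978, plus strand, GRCm38.p6) is shown because it was the only one of the members' windows to hold the p53 core pair, which occurred in 0.49% of all promoter windows.
Cdkn1a: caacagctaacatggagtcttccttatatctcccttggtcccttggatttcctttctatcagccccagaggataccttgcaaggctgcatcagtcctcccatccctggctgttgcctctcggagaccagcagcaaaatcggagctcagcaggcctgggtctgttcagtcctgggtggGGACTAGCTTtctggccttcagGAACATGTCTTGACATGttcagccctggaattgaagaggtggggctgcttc
Capitals mark GGACTAGCTT and the joined matches GAACATGTCT and CATGTCTTGACATG, which overlap; the latter ends 35 bases before the start. Half-site matches were in the windows of 5 of the 9 members with a RefSeq entry (*Gadd45a*, *Cdkn1a*, *Ccng1*, *Mdm2* and *Bax*), and *Trp53inp1* had no entry. TGANTCA, the AP-1 motif, was in 0 of the 9 and in 6.75% of all windows. *Gadd45b*, *Gadd45g*, *Bbc3* and *Phlda3* had no half-site match in these windows.

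*Cdkn1a* was at 35.5, 35.6 and 17.8 CPM in the WT mice and at 41.6, 33.9, 42.6 and 44.3 CPM in the KO mice. WT replicate 3 was well below the other 6 mice, and KO replicate 2 was below WT replicates 1 and 2. Its log2 fold change was 0.45 (SE 0.23, 95% interval −0.03 to 0.93; edgeR, unadjusted p = 0.0629, adjusted p = 0.999), and without WT replicate 3 it was 0.19. It was 0.61 without WT replicate 1 (unadjusted p = 0.037), 0.60 without WT replicate 2 (0.028) and 0.53 without KO replicate 2 (0.047) in edgeR, and the unadjusted p was 0.033 without a filter on low counts.

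*Mdm2*, the ubiquitin ligase that limits p53 (chr10:117688875-117710758, minus strand), had the highest mean level of the 10 genes in each genotype. It was at 100.3, 103.6 and 99.6 CPM in the WT mice and at 115.2, 82.1, 118.5 and 137.8 CPM in the KO mice, with the lowest and the highest value of all 7 in the KO group. Its log2 fold change was 0.16 (SE 0.16, 95% interval −0.18 to 0.50). It was 0.058 without KO replicate 4, 0.29 without KO replicate 2 and 0.041 with the replicate block. *Ccng1*, a p53 target that encodes cyclin G1 and recruits a phosphatase to MDM2 (chr11:40748552-40755311, minus strand), was at 43.7, 47.6 and 50.0 CPM in the WT mice and at 31.5, 38.2, 29.9 and 56.1 CPM in the KO mice. KO replicates 1 to 3 were below every WT mouse and KO replicate 4 was above every one, and the log2 fold change was −0.28 (SE 0.21, 95% interval −0.72 to 0.16). It was −0.50 without KO replicate 4 (edgeR, unadjusted p = 0.0181), −0.51 with the replicate block (0.0393) and −0.17 without KO replicate 3. Neither gene passed the edgeR test (adjusted p = 0.999 for both).

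Of the apoptosis and survival members, *Bbc3* encodes PUMA, a BH3-only activator of mitochondrial apoptosis, and lies at chr7:16308393-16318205 on the plus strand. It was at 19.7, 14.3 and 14.6 CPM in the WT mice and at 21.4, 30.8, 15.5 and 38.6 CPM in the KO mice. KO replicate 3 fell within the WT range and the other 3 KO mice were above it. The means were 16.2 ± 3.06 (SD, n = 3) and 26.6 ± 10.2 CPM (SD, n = 4), with a log2 fold change of 0.70 (SE 0.29, 95% interval 0.10 to 1.30; edgeR, unadjusted p = 0.0256, adjusted p = 0.999). It was 0.47 (unadjusted p = 0.121) without KO replicate 4, 0.43 (0.166) with the replicate block and 0.38 (0.241) without WT replicate 2 and KO replicate 4 in edgeR, and limma-voom gave an unadjusted p of 0.0849. With edgeR it was also 0.62 (0.074) without WT replicate 2, 0.63 (0.077) without WT replicate 3 and 0.62 (0.067) without KO replicate 2. In the other direction, edgeR gave 0.89 (0.0034) without KO replicate 3, 0.88 (0.021) without WT replicate 1 and 0.79 (0.020) without KO replicate 1. The unadjusted p was 0.0059 without a filter on low counts.

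*Bax*, the pore-forming effector of mitochondrial apoptosis (chr7:45461697-45466898, minus strand), had 11 to 20 reads per WT mouse and 15 to 47 per KO mouse. Its level was 2.63, 5.60 and 2.92 CPM in the WT mice and 2.92, 3.12, 8.78 and 5.23 CPM in the KO mice, and the groups overlapped. The log2 fold change of 0.44 (SE 0.52) had a 95% interval of −0.65 to 1.54, and it was 0.014 without KO replicate 3, 0.25 without WT replicate 1 and 0.85 without WT replicate 2. Another gene on the same strand, Gm45808, overlaps 12.2% of the exonic bases of *Bax*.

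*Phlda3*, which encodes an inhibitor of AKT signalling, lies at chr1:135766119-135769136 on the plus strand and was the lowest of the 10 genes. Its level was 2.41, 1.68 and 0.266 CPM in the WT mice, the last from 1 read, and 2.53, 2.91, 2.43 and 1.74 CPM in the KO mice from 7 to 14 reads. A difference in this gene was not detectable at this depth: the 95% interval of the log2 fold change of 0.69 ran from −0.72 to 2.11, and the value was 0.22 without WT replicate 3 and 1.31 without WT replicate 1.

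*Trp53inp1*, a stress protein linked to autophagy and p53 phosphorylation (chr4:11156431-11174379, plus strand), was at 63.6, 141.1 and 66.4 CPM in the WT mice and at 50.9, 61.7, 51.6 and 92.9 CPM in the KO mice. The highest value of each group was in WT replicate 2 and KO replicate 4, the libraries with the largest *Rn45s* shares of 20.6% and 18.6%; the part of this in the result was not tested. For this gene the log2 fold change was −0.49 (SE 0.32, 95% interval −1.20 to 0.22; edgeR, adjusted p = 0.999). It was −0.02 without WT replicate 2, and −0.25 without WT replicate 2 and KO replicate 4 (edgeR, unadjusted p = 0.202). It was −0.72 without KO replicate 4 (edgeR, unadjusted p = 0.0176), −0.69 without WT replicate 1 (0.0438), −0.63 with the replicate block (0.0159) and −0.49 without a filter on low counts (0.0058), so under these 4 settings it was lower in KO mice at an unadjusted p under 0.05.

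**Figure D3:**
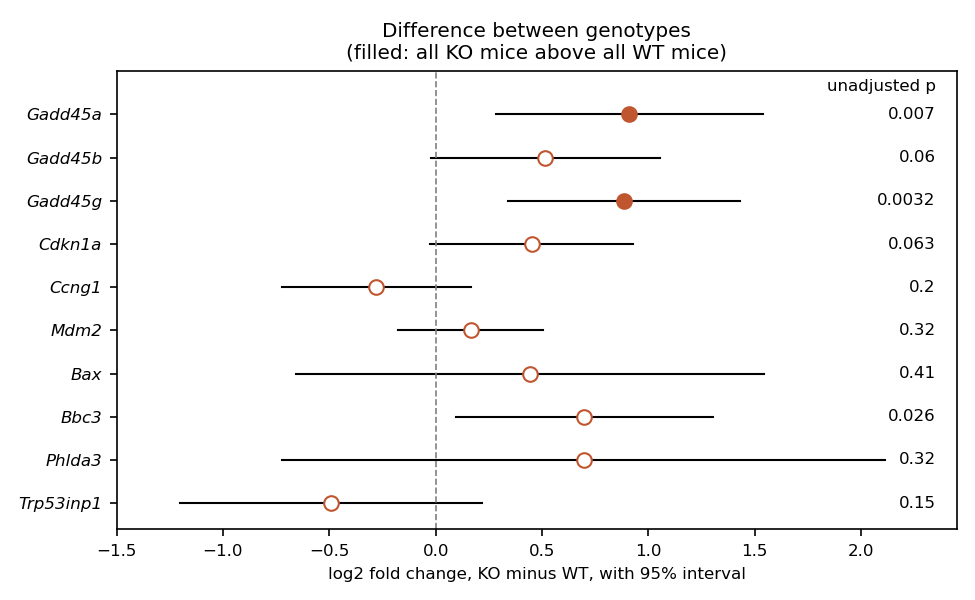
Log2 fold change (KO minus WT, horizontal axis) of the 10 genes with 95% intervals from edgeR's quasi-likelihood fit and unadjusted p at the right; filled points are genes higher in every KO mouse, and the dashed line is 0. The intervals of *Gadd45a*, *Gadd45g* and *Bbc3* lie above 0 before any adjustment over genes, and the widest belongs to *Phlda3* (−0.72 to 2.11), which had the fewest reads.

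In WT mice the mean levels ran in the order *Mdm2*, *Trp53inp1*, *Ccng1*, *Cdkn1a*, *Gadd45b*, *Bbc3*, *Gadd45g*, *Gadd45a*, *Bax* and *Phlda3*. *Mdm2* and *Trp53inp1* overlapped between mice, as did *Cdkn1a* and *Gadd45b*, *Gadd45b* and *Bbc3*, and *Gadd45g* and *Gadd45a*. In KO mice *Cdkn1a* came before *Ccng1*, and *Bbc3* and *Gadd45g* before *Gadd45b*, but all neighbours from *Cdkn1a* to *Gadd45a* overlapped. *Gadd45a*, *Bax* and *Phlda3* did not overlap in either genotype.

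The genes whose pattern over the 7 mice was most like that of each *Gadd45* gene were found by the mean absolute difference in centred log2(CPM + 1) among 11265 genes. For *Gadd45a* they were *Klhdc4* (0.188), *Ccno* (0.190) and *Mnd1* (0.197). For *Gadd45b* they were *Psma8* (0.0928), *Bhlhe40* (0.129) and *Gpd1* (0.129), and for *Gadd45g* *Tnnt1* (0.0940), *Afmid* (0.148) and *Dgat2* (0.148). No gene was among the nearest 3 of more than 1 *Gadd45* gene.

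A wider list of 58 genes of the p53 pathway, of which 51 were tested, was set beside the 10 members. edgeR called 0 of the 51 at an adjusted p under 0.25, as did DESeq2, limma-voom and the likelihood ratio test, and at an unadjusted p under 0.05 1 gene (*Plk3*) was higher and 1 (*Sesn1*) lower in KO mice, which is near the shares of all genes (1.56% higher and 2.07% lower). The log2 fold change was above 0 for 23 and below 0 for 28, with a median of −0.043. By role, 6 of 11 regulators, 5 of 9 cell cycle targets, 4 of 12 apoptosis targets, 2 of 9 DNA repair targets and 6 of 10 metabolism and antioxidant targets were above 0. The medians of these lists lay between −0.16 (DNA repair) and 0.058 (metabolism).

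*Trp53*, the gene of p53 itself, was at 45.0 ± 8.19 CPM in WT (SD, n = 3) and 45.7 ± 5.23 CPM in KO mice (SD, n = 4), a log2 fold change of 0.02 (SE 0.18) whose sign turned when single mice were left out. *Mdm4*, the MDM2 partner that also restrains p53, was at 179.0 ± 10.2 and 195.8 ± 17.1 CPM (log2 fold change 0.13, or 0.072 without KO replicate 1). The damage kinase *Atm* was at 85.0 ± 8.85 and 96.2 ± 23.7 CPM (log2 fold change 0.18, or −0.0078 without KO replicate 3 and 0.10 without WT replicate 1). The damage mediator *Trp53bp1* was at 4.37 ± 0.159 and 6.87 ± 2.77 CPM, with a log2 fold change of 0.65 (SE 0.43), and the ubiquitin ligase *Rchy1* had one of 0.24 (SE 0.18). Without KO replicate 1 these were 0.36 and 0.13.

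Among cell cycle targets, *Plk3*, a stress-responsive kinase, was at 12.1 ± 6.52 CPM in WT and 22.0 ± 7.97 CPM in KO mice (log2 fold change 0.83, SE 0.35; edgeR, unadjusted p = 0.0327, adjusted p = 0.999). It was 0.52 without WT replicate 2, 1.34 without WT replicate 1 and 0.28 without WT replicate 2 and KO replicate 4. *Gtse1* and *Psrc1*, both microtubule-associated, had log2 fold changes of −0.43 (SE 0.25) and −0.37 (SE 0.30), and of −0.095 and −0.21 without WT replicate 3. Without WT replicate 2 both were −0.60 (edgeR, unadjusted p = 0.036 for *Gtse1*), and that of *Psrc1* was −0.57 without KO replicate 1. Of the apoptosis targets, the death receptor *Fas* was at 8.43 ± 3.88 and 4.59 ± 1.28 CPM (log2 fold change −0.87, SE 0.42), and its log2 fold change was −0.44 without WT replicate 3. *Bid*, the BH3-only protein that links death receptors to mitochondria, was at 77.0 to 83.4 CPM in WT and 87.9 to 102.2 CPM in KO mice without overlap, at a log2 fold change of 0.23 (SE 0.14), and *Trp53i11* had one of 0.33 (SE 0.26), which was 0.17 without KO replicate 1, 0.22 without KO replicate 2 and 0.53 without KO replicate 3. The opposite-strand gene *Bcl2l13* covers all of the last 500 exonic bases of *Bid*, and *Tctex1d4* 84 of those of *Plk3*. If reads were counted without strand, these genes cannot be told apart from *Bid* and *Plk3* there.

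*Sesn1*, a p53-induced inhibitor of mTORC1 signalling, was at 40.9 to 48.4 CPM in WT and 27.7 to 38.0 CPM in KO mice. It was lower in every KO mouse, at a log2 fold change of −0.46 (SE 0.18; edgeR, unadjusted p = 0.0224, adjusted p = 0.999). *Dcxr*, a carbonyl reductase, was also lower in every KO mouse (21.5 to 24.4 against 12.1 to 20.4 CPM), while *Tigar*, which lowers glycolytic flux, had a log2 fold change of 0.44 (SE 0.24), or 0.68 without WT replicate 2 (edgeR, unadjusted p = 0.018). The repair genes with the smallest p were *Fancc* and *Mgmt*, with log2 fold changes of 0.38 (SE 0.28) and −0.41 (SE 0.32). That of *Fancc* was 0.22 without WT replicate 3 and 0.62 without WT replicate 2, and that of *Mgmt* was −0.23 without WT replicate 2.

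Of 11 tested genes for proteins that GADD45 binds or signals through, 9 had a log2 fold change above 0, beside 49.8% of all genes. The median of the 11 was 0.059, and edgeR called 0 at an adjusted p under 0.25, beside 0.0178% of all genes. *Map3k4*, the kinase that GADD45 proteins activate, was at 30.0 to 38.6 CPM in WT and 40.4 to 43.1 CPM in KO mice. *Map2k6*, which acts below it towards p38, was at 4.61 to 5.31 and 6.61 to 8.72 CPM. Both were higher in every KO mouse, as 2.37% of all genes were. Their log2 fold changes were 0.25 (SE 0.18; edgeR, unadjusted p = 0.170) and 0.58 (SE 0.37; 0.132). *Ccnb2*, a mitotic cyclin, had one of −0.22 (SE 0.14). These were 0.16 for *Map3k4* without WT replicate 3 and −0.12 for *Ccnb2* without WT replicate 2.

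**Figure D4:**
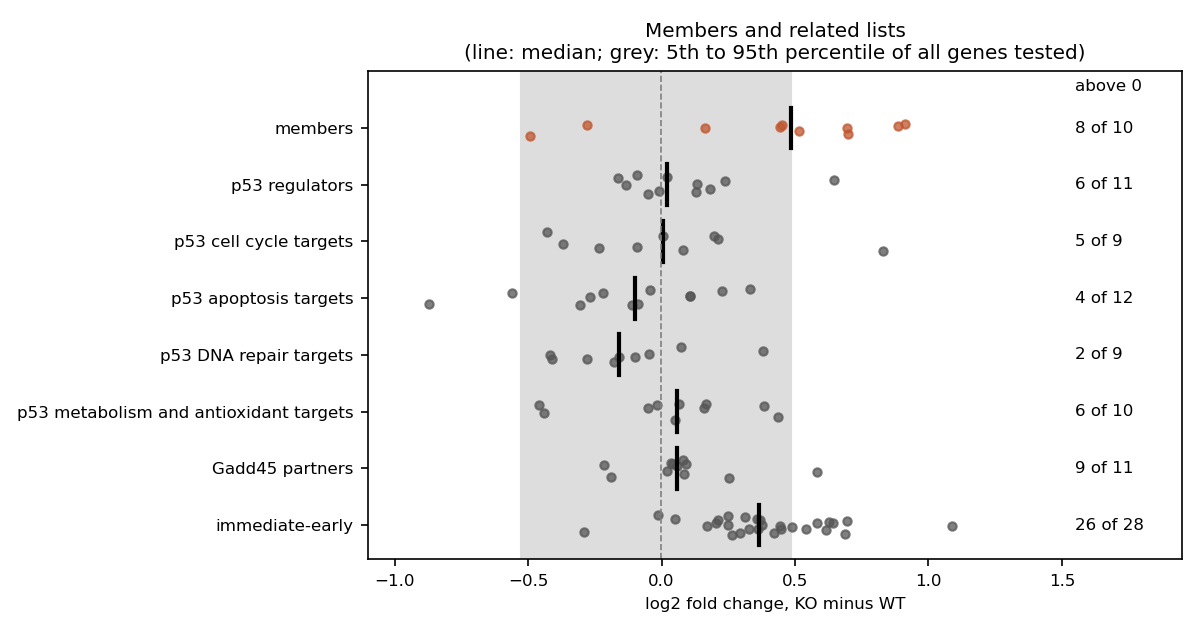
Log2 fold change (KO minus WT, horizontal axis) of the 10 members, the 5 groups of the wider p53 list, the GADD45 partners and the immediate-early genes; each point is 1 tested gene, the bar is the median the grey band is the 5th to 95th percentile of all genes tested, and the number of genes above 0 stands at the right. The medians of the members (0.48) and of the immediate-early genes (0.36) lie to the right of 0, and those of the 5 p53 groups lie between −0.16 and 0.058.

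Several members are also known as early response genes, so 28 immediate-early genes were set beside them. Of these, 26 had a log2 fold change above 0, with a median of 0.36, and 3 were higher in KO mice at an unadjusted p under 0.05, beside 49.8% of all genes above 0 and 1.56% higher at that threshold. Those were the transcription factor *Klf4* (0.70, SE 0.23; 0.46 without KO replicate 4), *Ier5* (0.38, SE 0.14) and the survival gene *Ier3* (0.49, SE 0.19; 0.31 without WT replicate 3), and edgeR's adjusted p was 0.999 for each. The summed level of the list was 10312, 7125 and 4933 CPM in the WT mice and 8103, 9203, 9436 and 14428 CPM in the KO mice, and the groups overlapped. WT replicate 3, the lowest, was also the lowest mouse for *Gadd45b*, *Cdkn1a* and *Phlda3*. KO replicate 4, the highest, was also the highest for *Gadd45g*, *Cdkn1a*, *Ccng1*, *Mdm2* and *Bbc3*, but the 5th of 7 for *Gadd45b* and *Phlda3*. WT replicate 1 was the 2nd highest mouse for the list and the lowest for *Gadd45a* and *Bax*. No gene of the list was at 0 in every mouse, and the part of these genes in the result was not tested.

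Marker genes of mature cells also differed between the mice. The summed level of 10 mature neutrophil markers was 7872 to 10975 CPM in WT and 8974 to 24777 CPM in KO mice; all 10 had a log2 fold change above 0 (median 0.77) and 0 reached an unadjusted p under 0.05. Its highest value was in KO replicate 3, the mouse with the most *Gadd45a* and *Bax* and the only one that read as male by *Xist* and *Ddx3y*. Without that mouse the log2 fold change of *Gadd45a* was 0.69 and that of *Gadd45g* 0.99. The summed level of 10 macrophage markers was 374 to 427 CPM in WT and 271 to 311 CPM in KO mice, with 6 of 9 tested markers lower at an unadjusted p under 0.05. That of 8 eosinophil, basophil and mast cell markers was 2560 to 2704 and 1779 to 2388 CPM, with 4 of 8 lower at that threshold, and 2.07% of all genes were lower at it. None of these 3 lists had a gene at 0 in every mouse, and their part in the levels of the *Gadd45* genes and p53 targets was not tested.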

How the data were processed

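The deposited values were whole-number counts of reads per gene symbol, 1 set per mouse, not normalized. According to the methods, the authors aligned 3′ end reads to GRCm38 with STAR, counted genes with STAR using an Ensembl gene model, and ran DESeq2; the strand counted is not given in the sources used here. 5 tally rows per mouse were left out; reads on no gene were 27.0% to 31.6% of all reads. If reads were counted without strand, a gene and its antisense gene cannot be told apart.

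Low genes were removed with filterByExpr (minimum count 10) and libraries scaled by TMM in edgeR 4.0.16 (R 4.3.3), whose CPM values (reads divided by the scaled library total, times 1e6) are printed. The main test was the robust quasi-likelihood test of KO against WT on all 7 mice, with Benjamini-Hochberg adjustment over 11265 genes. SEs were computed as |log2 fold change| / √F. Calls used an adjusted p under 0.25, with 0.05 beside it. The study used DESeq2; edgeR was the main test here, and DESeq2 1.42.0 an alternative. Others were limma-voom (limma 3.58.1), the likelihood ratio test, other scalings and filters, a block for the replicate number, *Rn45s* left out, each mouse left out in turn, and, added after seeing the data, the omission of WT replicate 2 and KO replicate 4. At these depths 3 reads were 0.561 to 0.840 CPM. All replicate pairs of a genotype differed by more than sampling noise.

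The members and gene lists were chosen with earlier results of these data known. Named genes were the 10 members, *Hdgfl2*, *Rn45s*, *Trp53*, *Mdm4*, *Atm*, the 3 genes with the smallest p in each wider list, and the 3 nearest patterns to each *Gadd45* gene. The value of 1 gene under this rule is not reported here. Genes without overlap between genotypes, genes that overlap a named gene, *Xist* and *Ddx3y* were named after their values were seen. Loci are from GENCODE M21, sequences and motif shares from RefSeq (GRCm38.p6), which held 9 of 10 members.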

Additional observations from a re-analysis of the deposited data

How the results depend on the processing

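Under all 17 alternatives, 0 members and 0 genes of the wider p53 list passed an adjusted p under 0.25, and every member kept its direction; *Phlda3* could not be tested with at least 10 counts in every mouse. The smallest adjusted p was 0.395 for *Gadd45a* (range to 1.00) and 0.356 for *Gadd45g* (range to 1.00). The members at an unadjusted p under 0.05 numbered 3, against 6 without a filter on low counts, 6 without WT replicate 1 and 5 without KO replicate 4 (2 to 6 when 1 mouse was left out). The 3 were all higher in KO mice, whereas each of these larger counts included *Trp53inp1*, which was lower. The 5 without KO replicate 4 also included *Ccng1*, lower as well, and not *Bbc3*. Members higher in every KO mouse numbered 2, against 5 without WT replicate 1 and 4 without KO replicate 2 or KO replicate 4. The median log2 fold change of the members was 0.48 and ranged from 0.26 (without WT replicate 3) to 0.64. Over all genes, 2 passed, against 41 without a filter, 29 with the likelihood ratio test, 18 with DESeq2, 1 with at least 10 counts, and 7 at most with 1 mouse left out. *Klf4* passed only without the filter (adjusted p from 0.0045 to 1.00 over its alternatives). *Trp53* changed sign, from −0.12 to 0.11 with 1 mouse left out and at −0.14 without WT replicate 2 and KO replicate 4, as did *Atm*, from −0.0078 (without KO replicate 3) to 0.27, and 0.28 without WT replicate 2 and KO replicate 4. The cause was not tested. No pairing of the mice by replicate number was seen: deviations of same-numbered mice correlated at −0.025, −0.21 and −0.16 over genes, and no WT mouse correlated best with its own number. With so few mice this cannot exclude a batch shared by number. With the replicate block, 0 members were called and 5 had an unadjusted p under 0.05, among them *Ccng1* and *Trp53inp1*, which were lower in KO mice. The log2 fold changes of *Gadd45a* and *Gadd45g* were 0.85 and 0.76 with the block. Low read numbers limit *Bax* and *Phlda3*.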
